A study of Mus musculus with 12 samples.

Results

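The livers compared here came from male C57BL/6 wild type mice born to and suckled by dams on a control diet, which were weaned either onto the same control diet (CC) or onto an obesogenic diet (CO). All genes of the deposited table were compared between the 2 libraries whose column names start with CO and the 3 that start with CC, 5 of the 11 libraries in all. The control diet was a standard chow (RM1) with 7% simple carbohydrate and 3% lipid by weight. The obesogenic diet held 10% simple carbohydrate and 20% lipid and was given with sweetened condensed milk (55% simple carbohydrate, 8% lipid, 8% protein) supplemented with the AIN93G mineral and vitamin mix. Litters were standardised to 6 pups on day 3, weaning was on day 21, and livers were taken at 12 weeks of age (day 84) from fasted mice. The other 6 libraries came from sons of dams on the obesogenic diet, 3 weaned onto chow (OC) and 3 onto the obesogenic diet (OO). The labels list 3 mice in each group, and the third CO mouse was not analysed here. No label ties a mouse to a litter, so p-values measure the spread between these libraries, which may in part be a spread between litters.

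The liver of a fasted mouse breaks down amino acids, makes glucose and ketone bodies, and clears the freed ammonia through the urea cycle, with the enzymes for these tasks concentrated in the periportal hepatocytes, those nearest the incoming blood. Hepatocytes also release hepcidin, the hormone that blocks iron export from cells, and answer cytokines, with interleukin 6 inducing the acute phase proteins through the transcription factor STAT3, and interferons inducing antiviral and antigen presentation genes through STAT2 and IRF9 among other factors. A diet rich in fat and sugar is known to raise hepatic fat storage and to alter each of these functions in mice.

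Values below are scaled counts, whose unit lies close to CPM. Recovered depth ran from 4575514 reads in CO.1 to 7506153 in CC.2 among the CC and CO libraries, where 1 read was worth 0.138 to 0.218. The summed level of 13 measured hepatocyte markers was 87408 to 90249 in CC and 87481 to 87980 in CO, and of the defining markers Ttr and Apoa1 were abundant in each library while Alb was not analysed here. Pancreas transcripts were present unevenly, as the summed level of 18 exocrine pancreas markers was 10.9, 1069 and 7.60 in CC and 113 and 4558 in CO, with Prss2 at 0 in CC.0 and CC.2. Genes listed at exactly 0 in every library of a group were set aside. They numbered 6, of which Mup17 and mt-Rnr2 were at 0 in CO and OO and Gm24105, Gm8893, Serpina1b and Serpina1d in OO.

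Of the 12080 genes tested, 122 (1.01%) were higher and 92 (0.762%) lower in CO than in CC at an adjusted p under 0.05, together 214 (1.77%), by limma's moderated test with Benjamini-Hochberg adjustment. Fold changes are differences of log2(scaled count + 0.5), given as CO minus CC, and they understate the change of genes with low values. At an unadjusted p under 0.05, 2028 genes (16.8%) passed, where chance gives 604. On recovered whole reads edgeR called 163 genes (1.35%) and DESeq2 463 (3.92%). The median over all genes was -0.01. For all 214 genes the CC and CO libraries did not overlap, but over all genes tested CO lay wholly above CC in 17.0% and wholly below in 17.9%. With 10 ways to divide 5 libraries, an exact permutation test of a single gene cannot go below a one-sided p of 0.1, so the calls rest on the spread shared over all 4 groups.

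The count depended on single libraries. It was 8 without CC.0, 5 without CC.2, 25 without CO.1, 156 without CO.0 and 210 without CC.1. It was 121 without OC.2, a library that enters only the shared spread. The 5 genes called without CC.2 were called in each of the 11 fits that left out 1 library, and every other call given below was lost without CC.2.

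The 5 genes that kept their call in each of these fits were Gas1, Htatip2, Cbr1, Srgap3 and Nrp1. Gas1, which encodes a membrane protein that binds Hedgehog ligands, stood at 12.4, 12.5 and 12.6 in CC and at 3.5 and 3.49 in CO. It fell by 1.70 (SE 0.15, limma adjusted p = 0.0017), a gap wider than the spread inside either group. Htatip2, an oxidoreductase gene, stood at 38.5, 37.8 and 37.5 in CC and 13.2 and 15.3 in CO, and it fell by 1.39 (SE 0.14). Cbr1, a carbonyl reductase that clears reactive carbonyls, stood at 104, 71.6 and 88.2 in CC and at 25.5 in both CO libraries, and it fell by 1.75 (SE 0.20). Srgap3, which encodes a GTPase activating protein of the Slit and Robo pathway, was low in all libraries, at 5.55, 5.42 and 4.98 in CC against 0.833 and 0.437 in CO, where the value of 3 reads is 0.5 and 0.655. The single riser was Nrp1, the co-receptor of semaphorins and vascular endothelial growth factor, at 85.6, 114 and 124 in CC and 300.2 and 315 in CO, a rise of 1.53 (SE 0.18). Limma's adjusted p of these 5 genes lay between 0.0017 and 0.0075, and between 0.0065 and 0.048 when a CC or CO library was left out.

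Gene lists for pathways and cell types sorted the changes by function. The count of calls in each list stands against 1.77% called over all genes tested. The plot of gene lists shows the member genes of 21 of the 41 lists. Immune lists lay to the right of 0, and lists for amino acid, glucose and drug metabolism to the left. Lists for fat storage and oxidation lay near 0.

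**Figure D1:**
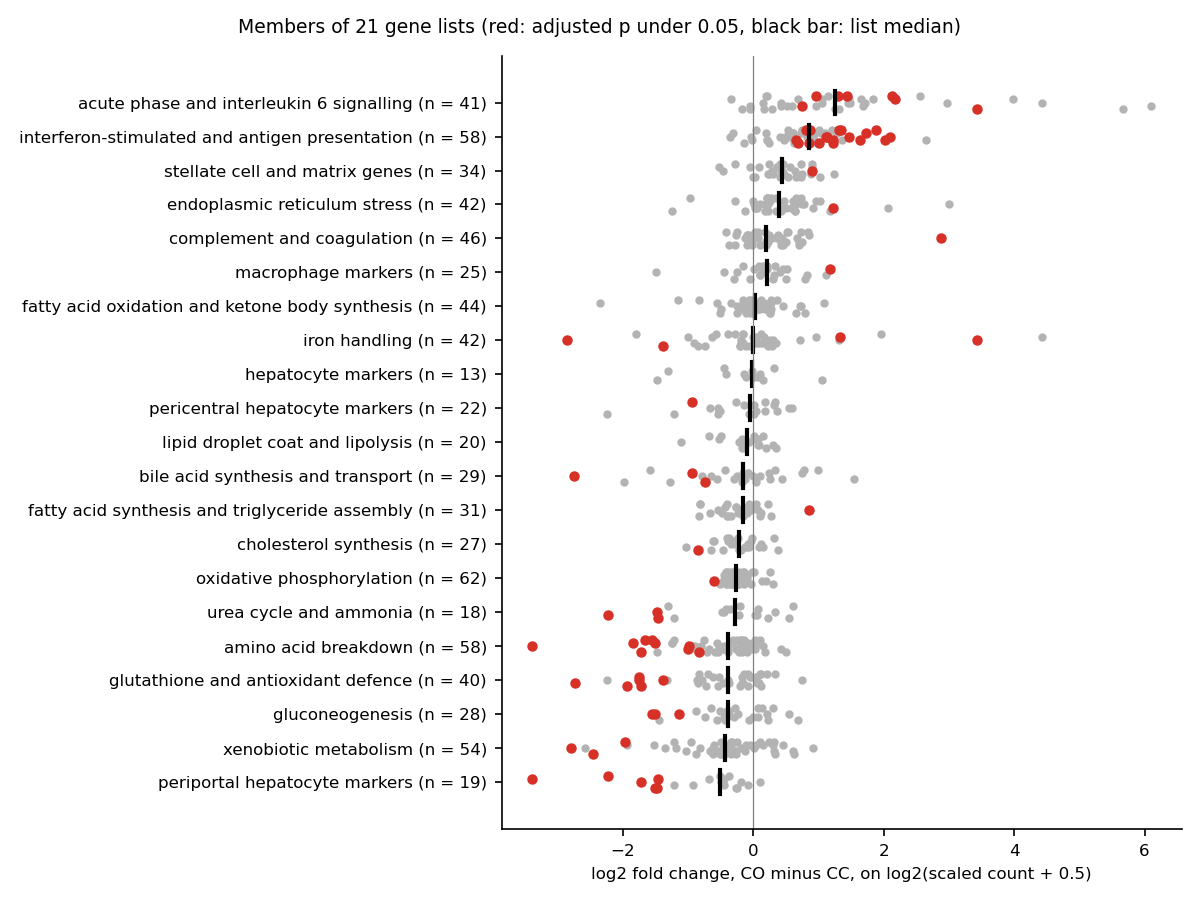
Log2 fold change, CO minus CC, of each measured member of 21 gene lists (grey points, with red for genes at a limma adjusted p under 0.05 and a black bar for the list median). Interferon-stimulated genes held 18 red points, all above 0, and the 9 red points of amino acid breakdown were all below 0.

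Iron handling genes moved in both directions, with 2 of 42 measured members higher, 2 lower and a median of -0.00. Hamp, which encodes hepcidin, fell 7.28-fold, and Bmp6, the ligand that signals iron load to hepatocytes, fell 2.60-fold. The metalloreductase Steap4 and the metal carrier Slc39a14 rose 10.7-fold and 2.52-fold. The region before the Hamp start is shown because it carries letters of the elements through which both BMP signalling and STAT3 are known to act on this gene. Capitals mark GGCGCC, the core of the BMP response element, and TTCNNNGAA, the core of a STAT site, searched on both strands in the 250 bases before the RefSeq gene start (build GRCm38.p6, printed 5′ to 3′ on the gene's strand). GGCGCC lay in 19.2% and TTCNNNGAA in 7.22% of the same region of 9181 tested genes that had an entry. A match of letters is a description and not a bound site.
Hamp chr7:30944030-30944279 (- strand): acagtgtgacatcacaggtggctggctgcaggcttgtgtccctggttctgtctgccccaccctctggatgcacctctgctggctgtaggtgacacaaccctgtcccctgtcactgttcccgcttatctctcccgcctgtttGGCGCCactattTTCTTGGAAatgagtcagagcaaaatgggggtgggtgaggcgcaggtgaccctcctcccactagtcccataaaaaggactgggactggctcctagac

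Hamp stood at 416, 466 and 455 in CC and at 58.7 and 62.9 in CO, so that both CO values were close to each other and far below CC. It fell by 2.86 (SE 0.39, limma adjusted p = 0.011). The change was -2.91 to -2.81 with any CC or CO library left out, with an adjusted p of 0.017 to 0.058. Bmp6 stood at 6.82, 7.29 and 5.53 in CC and at 2.0 and 2.40 in CO, and it fell by 1.38 (SE 0.22, limma adjusted p = 0.018). In liver Bmp6 comes mainly from endothelial cells, and in bulk tissue fewer cells of a type and less RNA per cell cannot be told apart. The summed level of 24 endothelial markers, Bmp6 among them, was 857 to 929 in CC and 874 to 878 in CO. Id1 and Atoh8, both induced by BMP signalling, did not pass the test, at 4.91, 29.2 and 10.4 against 2.67 and 3.27 for Id1 and at 15.9, 25.2 and 23.9 against 10.2 and 10.5 for Atoh8 (limma adjusted p = 0.13 and 0.11). Both had non-overlapping groups with CO lower, as did 17.9% of all genes tested.

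Steap4, a metalloreductase induced by inflammation, stood at 56.3, 78.4 and 46.2 in CC and at 363 and 1116 in CO. It rose by 3.43 (SE 0.43, limma adjusted p = 0.0086), and by 2.62 without CO.1. Slc39a14, the zinc and iron importer ZIP14, stood at 139.8, 194 and 158 in CC and at 324 and 517 in CO, a rise of 1.33 (SE 0.20, limma adjusted p = 0.016). CO.1 was the higher CO library for both genes, and it was also the library with the highest acute phase level. Slc40a1, the iron exporter ferroportin, stood at 242, 267 and 221 against 162 and 111 (limma adjusted p = 0.093). The transferrin receptor gene Tfrc overlapped, at 63.1, 42.8 and 35 against 35 and 34.5. Hamp2, the near copy of Hamp, also overlapped, with 5.39, 2.06 and 0.967 in CC and 2.33 and 0.655 in CO.

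**Figure D2:**
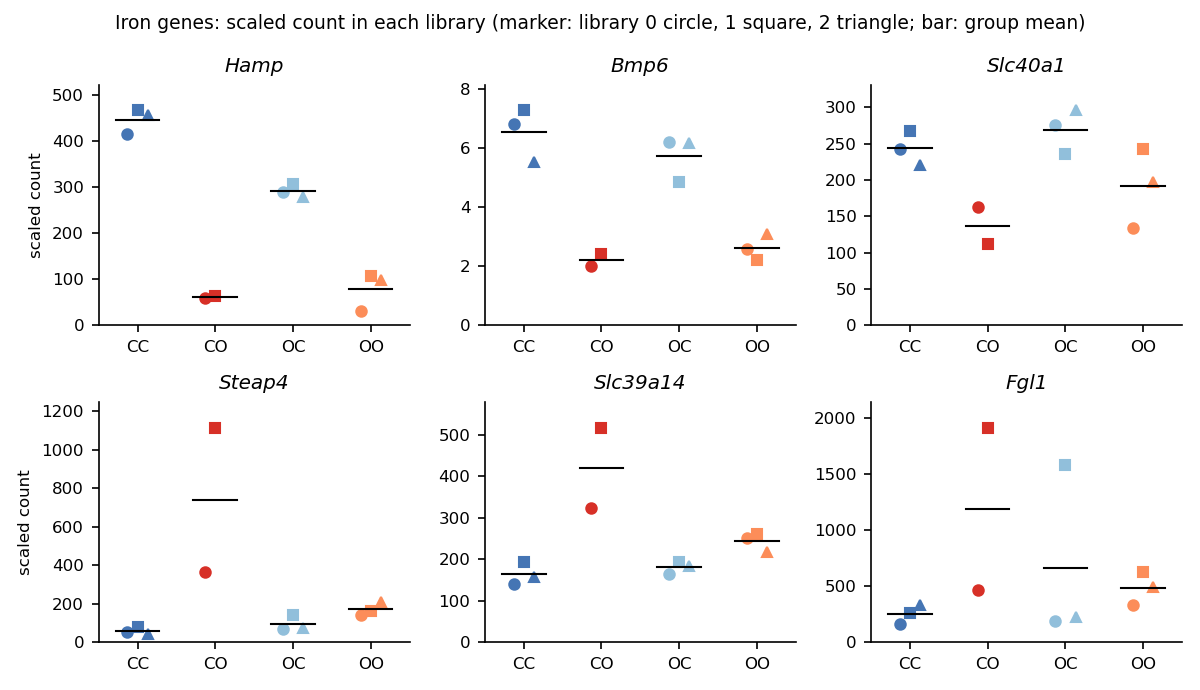
Scaled counts of 6 iron genes in each of the 11 libraries by group, with library 0 as a circle, 1 as a square and 2 as a triangle, and a bar at the group mean. Hamp was 416 to 466 in CC and 58.7 to 62.9 in CO, while Steap4 reached 363 and 1116 in CO.

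Metal carriers besides Slc39a14 were called as well. Of 33 genes for metallothioneins and for zinc, copper and magnesium transport, 3 were higher and 1 lower. Nipal1, a magnesium transporter gene, stood at 25.4, 27.3 and 14.2 in CC and at 1.17 and 3.71 in CO, and it fell by 3.05 (SE 0.46, limma adjusted p = 0.016). Slc41a2, another magnesium transporter gene, went the other way, from 7.13, 21.3 and 9.40 to 37.3 and 139, a rise of 2.62 (SE 0.59, limma adjusted p = 0.048). The values were -2.38 for Nipal1 without CO.0 and 1.68 for Slc41a2 without CO.1. The zinc exporter Slc30a5 rose by 0.89. The metallothionein gene Mt1, which binds zinc and is induced in inflammation, overlapped between groups, at 138, 4.86 and 27.8 in CC and 36.3 and 713 in CO.

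Genes that interferon induces formed the list with the most calls. Of 58 measured interferon-stimulated and antigen presentation genes 18 rose, 0 fell and 53 lay above 0, with a median of 0.85. The signalling core rose, with Stat2 at 39.5, 36.5 and 41.7 in CC and 60.7 and 63.7 in CO, a rise of 0.66, and Irf9 up by 0.81. Antiviral effectors (Ifit1, Isg15, Oas2, Oasl2 and Adar) and antigen processing genes (Tap1 and Psmb9) rose with them. This list was written with the interferon pattern of these libraries known, so its count is not independent evidence.

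The 250 bases before the start are shown for 3 of the genes that rose, an effector of each of 2 kinds and a signalling gene, chosen from those that hold a short element through which interferon is known to act. Capitals mark GAAA followed, after 2 bases of any kind, by GAAA on either strand, the core of the interferon-stimulated response element to which the complex of STAT2 and IRF9 binds (RefSeq, build GRCm38.p6, 5′ to 3′ on the gene's strand).
Ifit1 chr19:34640639-34640888 (+ strand): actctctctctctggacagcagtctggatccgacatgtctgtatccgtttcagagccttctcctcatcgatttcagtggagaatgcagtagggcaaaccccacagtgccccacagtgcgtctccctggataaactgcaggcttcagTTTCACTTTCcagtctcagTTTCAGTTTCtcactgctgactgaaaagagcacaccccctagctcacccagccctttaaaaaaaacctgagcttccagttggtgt
Isg15 chr4:156200819-156201068 (- strand): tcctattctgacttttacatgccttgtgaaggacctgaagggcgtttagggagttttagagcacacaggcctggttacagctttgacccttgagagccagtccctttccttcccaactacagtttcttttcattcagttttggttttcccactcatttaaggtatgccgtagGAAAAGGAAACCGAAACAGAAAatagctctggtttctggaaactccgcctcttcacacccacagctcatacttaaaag
Stat2 chr10:128270248-128270497 (+ strand): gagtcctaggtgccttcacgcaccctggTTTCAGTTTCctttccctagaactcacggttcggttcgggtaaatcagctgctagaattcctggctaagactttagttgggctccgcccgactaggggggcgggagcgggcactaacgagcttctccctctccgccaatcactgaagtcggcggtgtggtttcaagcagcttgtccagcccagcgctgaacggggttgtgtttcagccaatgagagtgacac
Of the 18 genes that rose 14 had an entry, and 4 held the motif in this window (Ifit1, Isg15, Stat2 and Trim12c, 28.6%). Over all measured members of the list 16 of 44 held it (36.4%), and over all tested genes 3.34%. In Isg15 the 3 matches overlap one another. Of all 122 genes that rose in CO, 98 had an entry and 10 held the motif (10.2%), and of the 92 that fell, 68 had an entry and 2 held it (2.94%).

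Ifit1, which binds viral RNA that lacks a host cap, stood at 3.80, 9.72 and 6.5 in CC and 30.3 and 24.0 in CO. It rose 4.07-fold (SE 0.41 on the log2 scale, limma adjusted p = 0.036). Isg15, a ubiquitin-like modifier, stood at 2.69, 3.55 and 2.35 in CC and 8.33 and 11.6 in CO, a 3.10-fold rise. Both CO libraries lay above all 3 CC libraries in each case, and neither CO library was the higher for both genes.

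Oas2 and Oasl2, of the family that senses double-stranded RNA, rose 4.26-fold and 2.48-fold, and Zbp1, an interferon-induced sensor of Z-form nucleic acid outside the list, rose 4.33-fold, from 2.22, 5.24 and 3.73 to 13.3 and 21.6. Adar, the enzyme that edits double-stranded RNA, showed one of the narrowest spreads, with 29.6, 27.1 and 26.7 in CC and 45.2 and 44.3 in CO, a rise of 0.68 (SE 0.12, limma adjusted p = 0.02). The peptide transporter Tap1 stood at 15.5, 23.4 and 19.8 in CC and 41.8 and 43.2 in CO, and the immunoproteasome subunit Psmb9 rose 2.55-fold. The interferon-inducible GTPases Ifi47 and Iigp1 rose 3.69-fold and 2.33-fold. Parp14, Dtx3l, Rnf213, Xaf1, Ifi44 and Trim12c rose by 0.86 to 1.73. Irf7, the factor that amplifies the response, did not pass, at 13.9, 25.1 and 19.6 against 48.0 and 35.4 (limma adjusted p = 0.079). Gbp11, whose family has near-identical copies, stood at 3.49, 12.0 and 2.21 against 56.3 and 17.7 (limma adjusted p = 0.062).

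The median was similar without either CO library. That of the 58 genes was 0.78 without CO.0, 0.89 without CO.1, and 0.99 without CO.1 and CC.1, the CC and CO libraries with the most pancreas transcripts, with 53, 54 and 55 members above 0. The count of calls did fall, from 18 to 3, 2 and 9 in those fits, to 0 without CC.0 or without CC.2, and rose to 21 without CC.1. Markers of cells that could bring such transcripts were measured beside it. Macrophage markers summed to 684 to 917 in CC and 938 to 1009 in CO over 25 of 28 genes, without overlap, with 1 of them, Mpeg1, higher. Of the 25, 19 lay above 0 (median 0.21). CO lay wholly above CC in 7, among them Aif1, Ctss and Cybb, and wholly below in 1. Over all genes tested CO lay wholly above CC in 17.0% and wholly below in 17.9%. The defining macrophage markers Adgre1, Cd68 and Clec4f overlapped between groups. Of the lymphocyte list only 4 of 19 were measured, none of them T cell receptor genes, and they summed to 21.1 to 32.4 and 29.3 to 37.8. Of these the B cell genes Cd79b, Ighm and Igkc lay wholly below CC in CO and the pan-leukocyte gene Ptprc wholly above, with a median of -0.65 and 0 called. The part of these cells in the interferon genes was not tested.

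**Figure D3:**
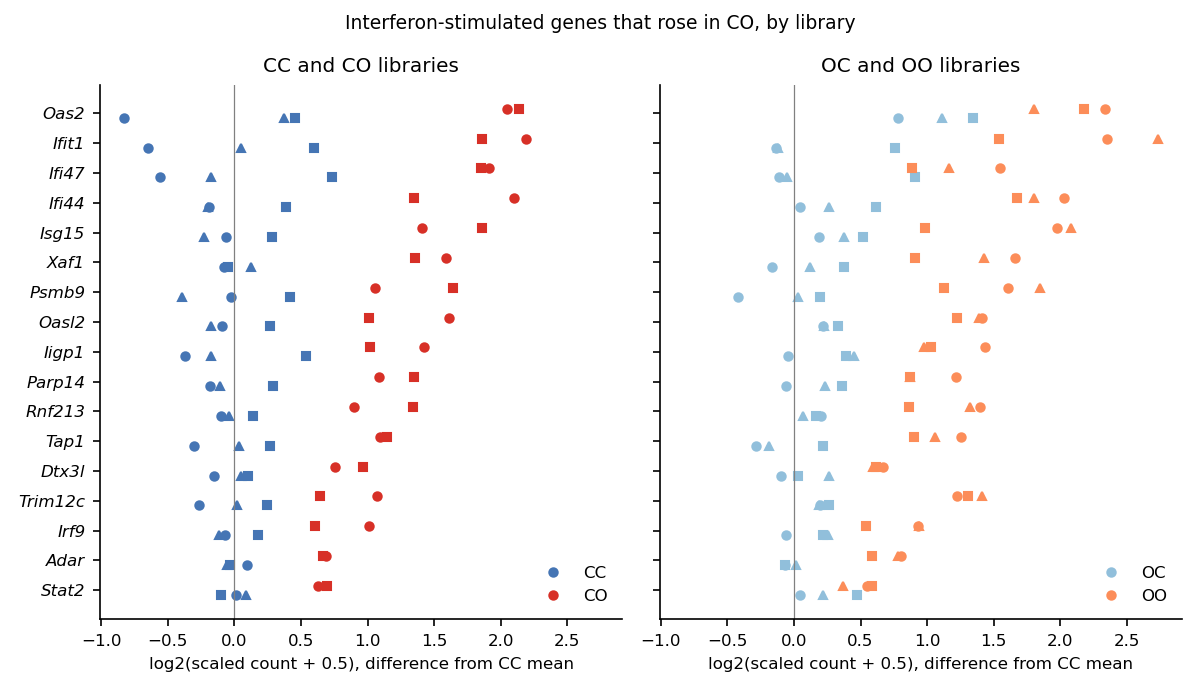
Level of 17 of the 18 interferon-stimulated genes that rose in CO, for each library, as log2(scaled count + 0.5) minus the CC mean, with CC and CO on the left and OC and OO on the right (library 0 circle, 1 square, 2 triangle). In each of the 17 genes both CO libraries lay above the 3 CC libraries.

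Acute phase genes were higher chiefly in CO.1. Of 41 measured genes of the acute phase and of interleukin 6 signalling 7 rose, 0 fell and 37 lay above 0, with a median of 1.25. Those that rose included receptor and signalling genes (Il6st, the shared receptor chain gp130, Osmr, the oncostatin M receptor, and Stat3) and the products Saa4, Steap4, Serpina3g and Il1rn. Relative to the CC mean, the average level of the list was 0.71 in CO.0 and 2.33 in CO.1, and -0.08 to 0.14 in CC. Leaving out CO.1 gave a median of 0.53 and leaving out CO.0 gave 1.60, and the count of higher genes was 1 and 8, with 1 without CC.0 and 0 without CC.2.

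Il6st stood at 165, 189 and 196 in CC and at 273 and 341 in CO, a rise of 0.74 (SE 0.14, limma adjusted p = 0.031). Osmr stood at 6.66, 6.92 and 6.91 in CC and 14 and 22.0 in CO, and it rose 2.47-fold. Stat3 stood at 113, 105 and 87.5 in CC and at 159 and 248 in CO, a 1.95-fold rise. For these 3 genes both CO libraries lay above CC and CO.1 was the higher. Saa4, a constitutive serum amyloid gene, stood at 57.5, 93.9 and 69.8 in CC and at 222 and 480.5 in CO (limma adjusted p = 0.02). The inducible amyloid genes differed far more between the CO libraries, with Saa1 at 389 and 5045 and Saa2 at 282 and 7410.0, against 21.3 to 36.1 and 15 to 25.6 in CC, and neither passed (limma adjusted p = 0.15 for both). Saa and serpin genes have close copies, and their values are uncertain.

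The summed level of neutrophil markers was also highest in CO.1, but not each marker followed the acute phase level. Csf3r stood at 1.74, 4.30 and 2.35 in CC and at 4.83 and 8.30 in CO. Cxcr2 stood at 6.66, 4.49 and 3.87 in CC and at 6.83 and 10.5 in CO. Neither passed (limma adjusted p = 0.12 and 0.25). In OC.1, the OC library with the highest acute phase level (1.49), they stood at 3.95 and 5.02, below the 5.05 and 7.75 of OC.0. Of 14 neutrophil genes 5 were measured. Their sum was 9.95 to 16.3 in CC, 29.2 in CO.0 and 938 in CO.1, of which Lcn2, also made by hepatocytes in inflammation, gave 894. The calgranulin S100a8 rose 5.29-fold, from 0.951, 0.561 and 0.276 to 2.83 and 8.95, or by 2.40 on the log2 scale and 1.65 without CO.1, and Ly6g was not analysed here. Complement and coagulation genes had 1 call among 46 (2.17%, near the 1.77% over all genes). It was C4a, at 10.1, 7.48 and 10.9 in CC and 58.7 and 89.1 in CO. Its near copy C4b stood at 675, 766 and 727 against 1169 and 1470.2 and did not pass (limma adjusted p = 0.16), and the division of reads between the 2 is uncertain. Of 29 chemokine, calgranulin and innate sensing genes S100a8 was the only call (3.45%). Cxcl1, a neutrophil attractant, stood at 0.476, 1.87 and 1.24 against 4.17 and 57.4. The part of neutrophils in these values was not tested.

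Genes of amino acid breakdown and of the urea cycle were lower. Of 58 amino acid breakdown genes 9 fell, 0 rose and 47 lay below 0 (median -0.38), and of 18 urea cycle and ammonia genes 3 fell and 0 rose (median -0.29). Of the 9, Hal and Amdhd1 act in histidine breakdown, Tdo2 in tryptophan, Sds in serine, Gldc in glycine and Got1 in aspartate breakdown. Etnppl breaks down phosphoethanolamine, and Cth and Csad act in the metabolism of cysteine and taurine. The amino acid median was -0.64 without CO.0 and -0.10 without CO.1, so that the list was lower chiefly in CO.1, while the urea cycle median was -0.22 and -0.28.

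Asl, which splits argininosuccinate, stood at 1824, 907 and 1554 in CC and at 426 and 200.4 in CO. It fell by 2.23 (SE 0.36, limma adjusted p = 0.018). Ass1, the step before, stood at 2284, 1432 and 1699 in CC and at 842 and 478 in CO, a 2.79-fold fall, and Arg1, the step that frees urea, at 2912, 1523 and 2156 and at 792 and 742, a 2.77-fold fall. All 3 of these cytosolic enzymes had CO wholly below CC, and CC.1 was the lowest CC library in each. The mitochondrial enzymes did not pass, with Cps1 at 12532, 8392 and 12334 against 5906 and 3308 (limma adjusted p = 0.093) and Otc overlapping at 402, 518 and 402 against 529 and 272.

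Etnppl fell the most of the called genes with a mean of at least 5 in 1 group, from 345, 356 and 252 to 63.0 and 13.8, or 10.5-fold (SE 0.50 on the log2 scale, limma adjusted p = 0.016). Its change was -4.46 without CO.0 and -2.31 without CO.1. Csad, which makes hypotaurine, stood at 324, 441 and 328 in CC and 104 and 97.1 in CO, with little spread in CO. Hal, histidine ammonia lyase, stood at 716, 703 and 711 in CC, nearly equal, and at 288 and 159.6 in CO, and Amdhd1, a later step of the same pathway, at 235, 232 and 238 and at 158 and 109. Tdo2, the first step of tryptophan breakdown, fell 2.0-fold, from 3356, 2631 and 2771 to 1647 and 1280.3. Cth, Sds, Got1 and Gldc fell 1.98-fold to 3.17-fold. Tyrosine aminotransferase, Tat, stood at 2013, 1316 and 1706 against 525 and 673 and narrowly missed the threshold (limma adjusted p = 0.061).

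Of 28 gluconeogenesis genes 3 fell and 0 rose (median -0.39). Sds and Got1 are counted above as well, and the third was Slc37a4, the transporter that brings glucose 6-phosphate into the endoplasmic reticulum, at 342, 208 and 311 in CC and 133 and 120.5 in CO (2.21-fold, limma adjusted p = 0.044). The phosphatase that acts on it, G6pc, stood at 639, 614 and 535 against 272 and 173 and did not pass (limma adjusted p = 0.1). Pck1, the enzyme that starts gluconeogenesis from oxaloacetate, stood at 4018, 5563 and 4624 in CC and 3647 and 3598 in CO (limma adjusted p = 0.69). Of 39 genes of glycolysis, glycogen and insulin signalling 1 rose and 1 fell. Ppp1r3c, which targets protein phosphatase to glycogen, fell 4.77-fold, from 77.8, 112 and 83.1 to 12.8 and 26.4, and Slc37a1, a relative of Slc37a4, rose 7.76-fold, from 1.27, 1.87 and 1.66 to 10.2 and 24.0 (2.96 on the log2 scale, and 2.36 without CO.1).

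Of 19 markers of periportal hepatocytes 6 fell, 0 rose and 1 lay above 0 (median -0.52), and of 22 markers of pericentral hepatocytes, those nearest the outgoing blood, 1 fell, Cyp27a1, and 10 lay above 0 (median -0.06). The 6 periportal genes (Etnppl, Asl, Arg1, Hal, Sds and Ass1) are all in the amino acid or urea cycle lists, so the 2 descriptions share their calls. The summed periportal level was 20290 to 25161 in CC and 11908 to 13292 in CO, without overlap. The pericentral sum was 12697 to 13948 in CC and 13180 to 17306 in CO, with overlap. The periportal median was -0.74 without CO.0 and -0.57 without CO.1.

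Genes that process drugs and toxins were lower too. Of 54 xenobiotic metabolism genes 3 fell and 0 rose (median -0.43), and of 40 glutathione and antioxidant genes 6 fell and 0 rose (median -0.38). Cyp3a11, a main cytochrome P450 for drugs and steroids, stood at 5030.1, 4206 and 4526 in CC and at 1395 and 313 in CO. It fell by 2.79 (SE 0.52, limma adjusted p = 0.03), with -1.71 when CO.1 was left out. Cyp3a25 stood at 1162, 1035 and 1067 in CC and 404 and 190.3 in CO, and Cyp2j9, an epoxygenase gene of the arachidonic acid pathway, at 27.1, 26.0 and 22.9 and at 4.00 and 4.37. Ugt1a9, a glucuronosyltransferase gene outside these lists, fell 4.42-fold, from 226, 243 and 252 to 78.6 and 37.0. The 2 CO libraries were almost equal for Cyp2j9 and CO.1 was the lower for the others, and the xenobiotic median was -0.71 without CO.0 and -0.15 without CO.1.

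Besides Htatip2 and Cbr1, 4 glutathione transferase genes of the antioxidant list fell. Gstm1 stood at 688, 675 and 449 in CC and at 181 and 131 in CO, a 3.84-fold fall (limma adjusted p = 0.018). Gsta4, which clears lipid aldehydes, stood at 41.1, 45.3 and 35.5 in CC and 15.8 and 8.51 in CO. Mgst3 and Gsta2 fell from values under 10, Gsta2 to 1.83 and 0. The change of Gsta2 was -2.74 (limma adjusted p = 0.049), with -3.85 without CO.0 and -1.63 without CO.1, and its call was lost without any of CC.0, CC.1, CC.2 or CO.1. Cyp, Gst and Ugt families have near-identical copies, so the split of reads among them is uncertain. Nfe2l2, which encodes the factor NRF2 that drives many of these genes, stood at 68.8, 74.0 and 60.5 against 55.2 and 48.9 (limma adjusted p = 0.28), and Nqo1, a much used marker of its activity, at 10.5, 6.17 and 6.63 against 2.83 and 2.62 (limma adjusted p = 0.088).

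**Figure D4:**
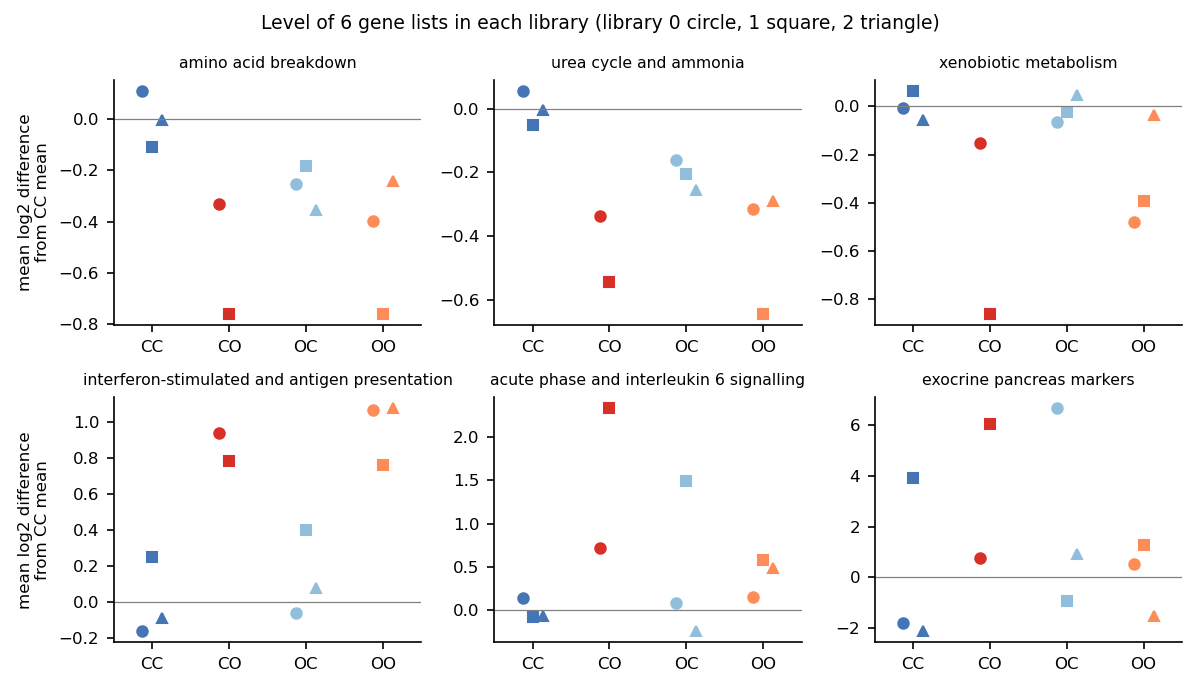
Mean over the members of 6 gene lists of log2(scaled count + 0.5) minus the CC mean, for each of the 11 libraries (library 0 circle, 1 square, 2 triangle). CO.0 and CO.1 lay close together for interferon genes (0.94 and 0.78) and far apart for acute phase genes (0.71 and 2.33) and pancreas markers (0.78 and 6.03).

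Bile acid genes had 3 lower and 0 higher members of 29 (median -0.15). Cyp27a1, the mitochondrial sterol 27-hydroxylase of the alternative pathway, stood at 599, 480.0 and 511 in CC and 312 and 244 in CO, a fall of 0.94 (SE 0.15, limma adjusted p = 0.018). Slco1a4, a sinusoidal organic anion importer, fell 6.71-fold, from 235, 89.0 and 94.7 to 19.7 and 17.0, and Klb, the co-receptor through which FGF15 and FGF21 act, fell 1.68-fold. Outside the list Cyp39a1, an oxysterol hydroxylase gene, fell 3.48-fold, from 95.9, 43.4 and 62.6 to 17.8 and 18.1. Cyp7a1, the rate-limiting enzyme of bile acid synthesis, overlapped, at 610.4, 104 and 324 in CC and 43.8 and 109 in CO (limma adjusted p = 0.31). Abcc3, a bile salt exporter of the sinusoidal side, stood at 286, 282 and 313 against 113 and 84.5 and just missed the threshold (limma adjusted p = 0.051).

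Calls among 133 genes in 5 lists of fat metabolism numbered 2 (1.5%), near the 1.77% over all genes. Among 31 genes of fatty acid synthesis and triglyceride assembly 1 rose, Mlxipl, which encodes the carbohydrate response factor ChREBP, at 76.7, 105 and 79.3 in CC and 168 and 145 in CO (1.81-fold, limma adjusted p = 0.048). Of the enzymes that this factor and SREBP1 are known to induce, Fasn and Acaca were not higher. Fasn stood at 212, 112 and 107 in CC and 74.5 and 98.0 in CO, and Acaca at 148, 99.1 and 100.3 and at 84.7 and 89.1. Srebf1, which encodes SREBP1, stood at 48.5, 54.2 and 35.1 in CC and at 20.7 and 31.2 in CO. None of these passed the test (limma adjusted p = 0.31, 0.28 and 0.21). Each had CO wholly below CC, as did 17.9% of all genes tested.

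In 3 more lists of fat metabolism, 0 members were called. They held 15 genes of polyunsaturated fatty acid synthesis, 20 of lipid droplets and lipolysis and 44 of fatty acid oxidation and ketone body synthesis, with medians of -0.00, -0.10 and 0.03, each of which crossed 0 when single libraries were left out. At an unadjusted p under 0.05 they held 4, 3 and 6 members. Plin2, the lipid droplet coat gene that follows stored fat, stood at 1042, 621 and 1060.4 in CC and 1128 and 847 in CO, and Cidec, which enlarges droplets, at 75.0, 7.48 and 73.8 and at 15.7 and 60.7. Both overlapped, and the interval of these differences is wide, with SE 0.30 and 1.0 on the log2 scale. Cpt1a, the gate of mitochondrial fatty acid oxidation, stood at 971, 804 and 1153 in CC and 925 and 1048 in CO, with overlap. Among 23 genes of fatty acid uptake and binding Fabp5 rose 7.09-fold, from 2.69, 6.54 and 4.01 to 24.2 and 43.9. Fabp1, the main fatty acid binding protein gene of hepatocytes, stood at 1610.5, 3704 and 2894 against 4976 and 4941 without passing (limma adjusted p = 0.25).

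Lipoprotein and cholesterol lists held 3 calls. Of 27 lipoprotein genes Abca1, the exporter that starts high density lipoprotein, rose 1.73-fold, from 339, 309.7 and 337 to 478 and 676. Tm6sf2, which aids the lipid loading of very low density lipoprotein, fell 2.32-fold, from 30, 26.4 and 26.0 to 10.3 and 12.9. Of 27 cholesterol synthesis genes Hsd17b7 fell 1.79-fold, from 91.3, 76.7 and 91.3 to 43.8 and 52.2. Of the 27, 22 lay below 0 (median -0.22), and the median depended on the CO library, at -0.01 without CO.0 and -0.60 without CO.1.

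Of 35 transcription factors of hepatocytes 2 rose and 1 fell. Onecut1, a hepatocyte factor also called HNF6, stood at 5.38, 13 and 3.34 in CC and at 66.5 and 51.0 in CO, a rise of 3.13 (SE 0.49, limma adjusted p = 0.018). Xbp1, the factor that endoplasmic reticulum stress activates through splicing of its mRNA, stood at 152, 208 and 171 in CC and 401 and 419 in CO, a rise of 1.22 (SE 0.19, limma adjusted p = 0.018). It was the only call among 42 endoplasmic reticulum stress genes (2.38%, near the 1.77% over all genes), of which 37 lay above 0 (median 0.39). The chaperone Hspa5 overlapped, at 789, 1503 and 1217 in CC and 2628 and 975 in CO, and Atf4 stood at 68.2, 89.4 and 74.5 against 79.3 and 75.1. CO lay wholly above CC in 17 of the 42 and wholly below in 1, against 17.0% and 17.9% over all genes tested. Derl3, Chac1 and Calr were among the 17 and did not pass (limma adjusted p = 0.071, 0.061 and 0.20). The factor that fell was Esrra, which drives mitochondrial genes (1.66-fold), and of 62 oxidative phosphorylation genes 57 lay below 0 (median -0.27, and -0.43 without CO.0 and -0.12 without CO.1). The single call there (1.61%) was Sdhd, a subunit of complex II, at 223, 202 and 201 in CC and 139 and 134 in CO. In the lists for ribosomal proteins (48 genes), the circadian clock (20) and the growth hormone and IGF axis (31), 0 members were called. Of the 48 ribosomal protein genes 43 lay below 0 (median -0.17, and -0.22 without CO.0 and -0.11 without CO.1). CO lay wholly below CC in 29 of them and wholly above in 1, against 17.9% and 17.0% over all genes tested.

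Outside the lists, Moxd1, a monooxygenase-like gene, was nearly absent in CC, at 1.11, 0 and 2.07, and stood at 185 and 162 in CO. It rose by 7.09 (SE 1.58, limma adjusted p = 0.047), and with 1 CC library at 0 the fitted fold depends on the added 0.5. Serpina4-ps1, a pseudogene with close relatives, rose 11.7-fold, from 10.1, 19.6 and 12.0 to 245 and 107. Slc25a30, a mitochondrial carrier gene, rose 7.57-fold, from 16.2, 47.1 and 24.6 to 339 and 124, and in both of these CO.0 was the higher CO library. Atp11a, a phospholipid flippase gene, Tifa, an adaptor of innate immune signalling, and Slc41a2 were instead higher in CO.1 (27.5 and 90.4 for Atp11a, 32.0 and 79.0 for Tifa). Without CO.1 the rise was 1.71 for Atp11a and 1.84 for Tifa, and without CO.0 it was 2.95 for Serpina4-ps1 and 2.20 for Slc25a30. Rarres1, Egfros and Serpine2 rose 4.42-fold, 7.86-fold and 3.80-fold. Cirbp, the cold-inducible RNA binding protein gene, fell 3.52-fold, from 35.2, 17.8 and 24.3 to 4.50 and 9.82, and Map2k6, a kinase that activates p38, fell 3.49-fold. In stellate cell and matrix genes 30 of 34 lay above 0 (median 0.44) with 1 call (2.94%, against 1.77% over all genes). It was the basement membrane collagen gene Col4a1, at 58.5, 45.4 and 51.4 in CC and 81.7 and 114 in CO. Plk2 fell 1.80-fold and Atg14 rose 1.83-fold as the single calls of the cell cycle (36 genes, 2.78%) and autophagy (35 genes, 2.86%) lists.

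The same change of offspring diet was measured in the sons of obesogenic dams, in libraries that share none with CC and CO. There limma called 11 of 12080 genes (0.0911%), 7 higher (0.0579%) and 4 lower (0.0331%), and 7.96% of genes had an unadjusted p under 0.05. Of the 122 genes that rose in CO, 119 were also higher in OO than in OC (97.5%), and of the 92 that fell, 88 were lower (95.7%). Over all genes the direction was shared by 63.6% of those higher and 63.2% of those lower in CO. These changed far less in CO against CC, with medians of 0.22 and -0.20, so their shares are not a like comparison. The zeros of Mup17 and mt-Rnr2 were likewise shared by CO and OO, and a difference in counting between the diets was not tested. The genes that rose had a median of 1.18 in CO against CC and 0.59 in OO against OC, and those that fell had -1.14 and -0.47. The genes were chosen by their values in CO and CC, which is no test of the size in OO. Since 1 fit gave both comparisons a shared spread, the genes were also chosen in part for a small spread in OC and OO. Their p-values in OO are therefore not counted, and the same choice can raise the share with a like direction.

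**Figure D5:**
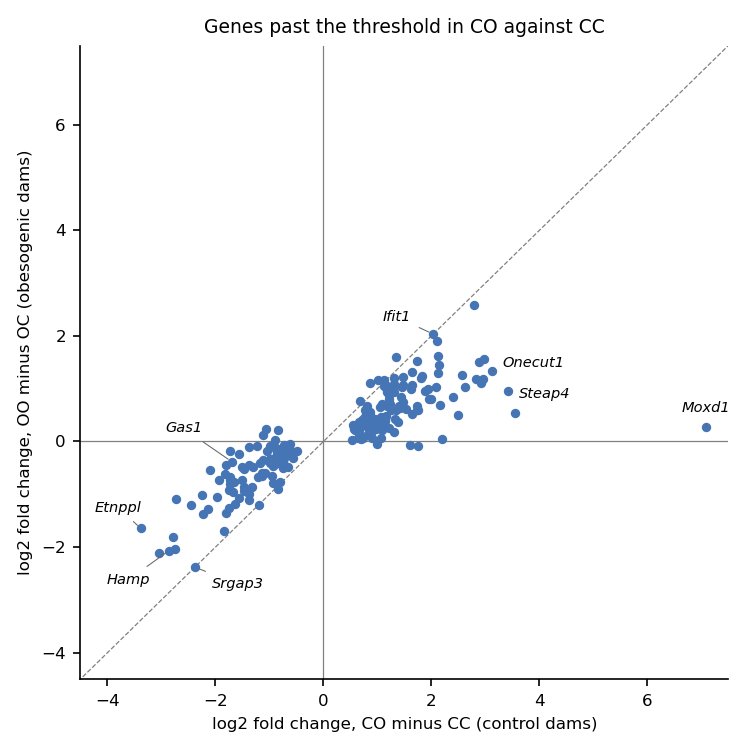
Log2 fold change of the 214 genes called in CO against CC, in sons of control dams (x axis) and of obesogenic dams (y axis), with a dashed line where both are equal. Of the 122 genes that rose 119 lay above 0 on the y axis, and 88 of the 92 that fell lay below it.

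Srgap3 fell by 2.38 in both comparisons. Hamp stood at -2.86 in CO against CC and -2.07 in OO against OC, and Ifit1 at 2.03 and 2.04. The interferon list had a median of 0.85 in each, and the acute phase list 1.25 and 0.02. The second acute phase value turns on OC.1, since the average level of that list relative to the CC mean was 0.09, 1.49 and -0.24 in OC and 0.15, 0.58 and 0.49 in OO. In CO against CC and OO against OC the medians were -0.38 and -0.04 for amino acid breakdown and -0.38 and -0.08 for glutathione and antioxidant genes. They were -0.39 and -0.12 for gluconeogenesis and -0.43 and -0.20 for xenobiotic metabolism. For the urea cycle they were -0.29 and -0.15, and for oxidative phosphorylation -0.27 and -0.01. Endoplasmic reticulum stress had 0.39 and -0.04, and cholesterol synthesis -0.22 and -0.86. Moxd1 stood at 7.09 and 0.28, and Xbp1 at 1.22 and 0.25. No gene passed the test of a difference between kinds of dam (0 of 12080 by limma and by edgeR, 2 by DESeq2, 547 or 4.53% at an unadjusted p under 0.05). The 5 genes with the smallest p were Gas1, P4ha2, Gm9968, Hist1h3e and Zfp467, all short of the threshold. Gas1 stood at -1.70 and -0.38, a difference of -1.32 (SE 0.20, limma adjusted p = 0.42), and P4ha2, a collagen prolyl hydroxylase gene, stood at 0.84 and -0.61. A p that misses the threshold does not show that the 2 kinds of offspring responded alike.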

How the data were processed

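RNA sequencing of total liver RNA (TruSeq libraries) was deposited as 1 table of 12086 genes by 11 libraries, against 12 labelled mice. Column names give the group only, so the column numbers are no labels of mice. The values the authors deposited are scaled counts, here treated as a signal. The name of the deposited table gives them as CPM, while its column headers say raw count. The columns sum to 936183 and other amounts. In each library 95.73 to 97.34% of values were whole multiples (within 0.01 reads) of the value of 1 read. A signal of this kind came from alignment with Bowtie 1.2.3 to mm8, per the submitters' processing notes. The counter, annotation, strand setting and scaling were not given in the sources used here. Values of 3 reads cover counting error only, while each SE comes from limma's estimate of the spread between libraries.

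Values were tested as log2(value + 0.5) with limma 3.58.1 (R 4.3.3, trend), with 1 mean per group over all 11 libraries (7 residual and 4.67 prior degrees of freedom). Genes needed a value of 1 in 3 libraries, and the 6 genes at exactly 0 throughout a group were set aside. P-values were adjusted by Benjamini-Hochberg over 12080 genes, with a threshold of 0.05. A test on the deposited values was kept, as designed for CPM, and edgeR 4.0.16 and DESeq2 1.42.0 were run on the recovered whole reads as alternatives. The procedure was run on simulated counts with planted changes, drawn independently for each gene. Shifts of many genes together in a single library, as seen here, were not part of that simulation. Other alternatives changed the pseudocount, filter, scaling and libraries.

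Named genes were the 20 largest rises and falls with at least 5 as the mean of the group that was higher, those called with each CC or CO library left out, and from the 41 lists the called members, the first 3 members and up to 6 others, with the 5 smallest p of the difference between kinds of dam. The members and lists were chosen with earlier results of these data known. Promoter sequences came from RefSeq (GRCm38.p6), matched by symbol for 9181 tested genes, a build other than that of the table, whose own coordinates are not used here. Some genes that this rule takes are withheld and not reported here.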

Additional observations from a re-analysis of the deposited data

How the results depend on the processing

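The 214 genes called between CO and CC were 202 to 219 under other pseudocounts, filters, scalings and a robust fit, 163 with edgeR (113 higher and 50 lower, against 122 and 92 with limma, 159 shared) and 463 of 11808 with DESeq2 (208 shared). They were 74 with only CC and CO in the fit (58 shared), and 5 to 231 with 1 library left out. Without CO.1 and CC.1, a choice made after seeing the data, they were 75 (43 shared). A lone CO library was assumed to vary like the other groups. OO against OC gave 11 genes, and 17 with edgeR, 97 with DESeq2, 4 with only OC and OO, 20 with all genes tested, 19 without CO.1 and CC.1, and 0 to 21 with 1 library left out. The difference between kinds of dam gave 0 genes, 2 with DESeq2, 4 with all genes tested, and 0 to 1 with 1 library left out. The causes were not tested. Of the 92 named genes that were called, none reversed in any alternative run. Their values kept the call in 926 of 1101 other settings and in 590 of 1012 with 1 library left out. Of the 312 named genes not called, 76 were called in some setting. Of the 41 lists 18 had a median above 0, and 15 to 20 in the alternatives. No paired analysis was possible because column names give the group and a number that the labels do not tie to a litter or mouse. At 4575514 to 7506153 reads, values near that of 3 reads (0.415 to 0.655) carry little precision.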

Other observations

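Heat shock and histone genes lay outside the lists and were picked after their values were seen. Hsph1, which encodes a chaperone of the HSP110 family, stood at 34.7, 70.5 and 61.8 in CC and at 216 and 151 in CO, a rise of 1.75 (SE 0.40, limma adjusted p = 0.049). Its relative Hspa4l rose by 1.14, from 36.3, 46.6 and 42.8 to 111 and 76.6, and Serpinh1, the collagen chaperone HSP47, rose by 1.73, from 5.23, 8.60 and 4.98 to 25.2 and 18.1. For all 3 genes CO lay wholly above CC and CO.0 was the higher CO library, unlike the acute phase genes. Other heat shock genes did not pass: Hspa1b, the inducible HSP70, stood at 8.88, 13.8 and 12.9 against 113 and 28.4 (limma adjusted p = 0.18), and the constitutive Hspa8 overlapped. In OO against OC, Hsph1 stood at -0.08 and Hspa4l at 0.28, and neither passed limma's test.

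The linker histone gene Hist1h1e stood at 68.6, 62.3 and 71.3 in CC and at 26.3 and 27.7 in CO, a fall of 1.30 (SE 0.17, limma adjusted p = 0.0096). The core histone genes Hist1h4h and Hist1h3e fell by 0.87 and 1.06. Histone genes did not move as one, since Hist1h2bc stood at 57.4, 63.0 and 46.0 in CC and 85.0 and 89.9 in CO without passing (limma adjusted p = 0.1). Their families have close copies, so the split of reads among them is uncertain.

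Mup17 and mt-Rnr2 were listed at 0 in both CO libraries and in all 3 OO libraries, while the CC values were 107, 426 and 754 for Mup17, of the urinary protein cluster whose genes are close copies, and 50664, 43529 and 51009 for mt-Rnr2, the mitochondrial large ribosomal RNA that every cell uses. Both genes were above 0 in every CC and OC library, so their zeros followed the offspring diet. Whether counting differed between the diets for other genes was not tested. Both genes were left out of the tests.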
